A study of Oryza sativa Japonica Group with 15 samples.

Results

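The regions described here are the pericentromeres of rice: all 10 kb bins whose midpoint lay within 2 Mb of the centromere of their chromosome. Each of the 12 chromosomes had 400 such bins, so that the windows held 4800 of the 37272 bins of the genome, or 12.9%. The centromere of each chromosome was taken at a fixed coordinate, the lowest at 2.8 Mb (chromosome 9) and the highest at 19.4 Mb (chromosome 3). Whether these coordinates suit the unnamed build of the files was not tested. The window of chromosome 9 reaches into the outer 2 Mb of its short arm, and the bins that lie in both were counted as pericentromeric.

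A centromere is the stretch of chromosome on which the kinetochore is built. In rice it contains satellite repeats and centromere-specific retrotransposons, and the DNA on both sides, the pericentromere, is rich in transposons and poor in genes, is packed as heterochromatin and recombines little. Repeats also matter for the measurement itself, because a read that maps equally well to several places is usually not placed. In many plant nuclei centromeres gather away from the chromosome ends, an arrangement named after Rabl, while in others they lie in separate groups, and contacts among pericentromeres of different chromosomes are the usual reading of such gathering in Hi-C data.

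Single-cell Hi-C records pairs of DNA segments that lay close enough in 1 nucleus to be ligated to each other. It was applied to single cells of the japonica cultivar Dongjin: 4 eggs from florets that had not been pollinated, 4 sperm from stamens, 3 unicellular zygotes from florets collected 6 to 8 hours after pollination, and 4 cells of the shoot of seedlings that had germinated 12 days before. No group carries a mutation or a treatment. Each cell is a library of its own, no plant, floret or seedling is named for any of them, and the organ and cell type of the shoot cells are not given further. The series' own description counts only 2 shoot cells, while 4 are listed as samples; all 4 were used, and which 2 are meant is not stated. Each group therefore counts as 1 sample. The SD over its cells describes these cells, and no difference between groups was tested.

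Per the labels' protocols, the DNA of each fixed cell was cut with DpnII, ligated, and amplified as a whole genome, with no molecular identifiers mentioned. A contact here is 1 distinct pair of DpnII fragments in a cell, however many read pairs support it, placed at the fragments' midpoints. A contact between chromosomes is called trans and a contact within a chromosome cis, and a contact is called far when it is trans or spans at least 20 kb. The 15 cells gave 111099 read pairs, 28358 contacts and 5510 far contacts, with 130 to 558 far contacts in a cell. Of the far contacts, 1758 had a pericentromeric end, and they carried 2006 pericentromeric far ends, which numbered 141 to 244 in an egg, 45 to 140 in a sperm, 80 to 167 in a zygote and 66 to 157 in a shoot cell. At this depth 402 of the 4800 pericentromeric bins (8.38%) had a far contact in any of the 15 cells, against 2917 of the 32472 other bins (8.98%). Counting contacts of every kind, including those under 20 kb, 22.6% of pericentromeric bins were reached, against 27.5% of the other bins. Exact (Clopper-Pearson) 95% intervals for shares, and exact Poisson intervals for ratios of counts, cover counting error only, since amplified read pairs are not independent molecules.

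A few places returned in cell after cell and bear on every result below. A bin was called recurrent when 5 or more of the 15 cells had a far contact there, which no group can reach on its own. Of the 4800 pericentromeric bins 20 were recurrent (0.417%), beside 75 of the 32472 other bins (0.231%) and a background of 0.255% over all bins. These 20 bins held most of the pericentromeric far ends of zygotes and many of those of eggs. They held 0.881% of the pericentromeric far ends in egg 3, 1.72% in sperm 3 and 6.67% in shoot cell 3, so these 3 libraries stood apart from the other 12, in which the share was 15.0% to 82.8%. Results are given with and without recurrent bins, and group means also without a single cell, these 3 or another, where that moved the value by over 1.5 times.

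Pericentromeres held more of the far contact ends than of the bins in most cells. Their share of far ends was 17.2%, 13.4%, 20.3% and 30.4% in eggs 1 to 4, and 17.9%, 13.5%, 18.6% and 17.3% in sperm 1 to 4. It was 18.0%, 18.5% and 25.2% in zygotes 1 to 3, and 17.5%, 20.3%, 10.4% and 13.6% in shoot cells 1 to 4. In 14 of the 15 cells this was above the 12.9% that the windows hold of all bins, and in shoot cell 3 it was below, with an interval of 8.48% to 12.7%. Of those 14 cells, 3 had an interval that included 12.9%: it was 11.4% to 15.6% in egg 2, 10.6% to 16.8% in sperm 2 and 10.7% to 17.0% in shoot cell 4. The mean share was 20.3% ± 7.31 in the eggs (SD, n = 4), 16.8% ± 2.32 in the sperm (SD, n = 4), 20.5% ± 4.00 in the zygotes (SD, n = 3) and 15.5% ± 4.33 in the shoot cells (SD, n = 4). The ranges of all 4 groups overlapped. The excess depended on the width of the windows: within 1 Mb of the centromeres, which is 6.44% of all bins, the ratio of the share of far ends to the share of bins was 0.545 in the eggs, 0.655 in the sperm, 0.495 in the zygotes and 1.04 in the shoot cells.

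Without contacts that touch a recurrent bin, the excess over the windows' share of bins was gone from most cells. The mean share was then 13.1% ± 5.20 in the eggs, 12.7% ± 6.08 in the sperm, 11.9% ± 1.20 in the zygotes and 12.0% ± 2.75 in the shoot cells (SD). It exceeded the windows' share of the remaining bins in 6 cells and fell short of it in 9. The highest ratio of the 2 shares was 1.61 in egg 3, a cell with hardly any recurrent bins, and the lowest was 0.555 in sperm 4. The reading depends on the bins counted. Of the bins reached by a contact of any kind in any cell, recurrent ones included, 10.8% were pericentromeric. The mean shares of all 4 groups without recurrent bins lay above that value. Counting each contacted fragment once per cell, in place of each of its contacts, gave 19.3% in the eggs, 17.6% in the sperm, 20.9% in the zygotes and 14.2% in the shoot cells with recurrent bins. Without them it gave 12.3% in the eggs, 14.1% in the sperm, 11.8% in the zygotes and 10.6% in the shoot cells, with 4 cells above the share of bins and 11 below.

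**Figure D1:**
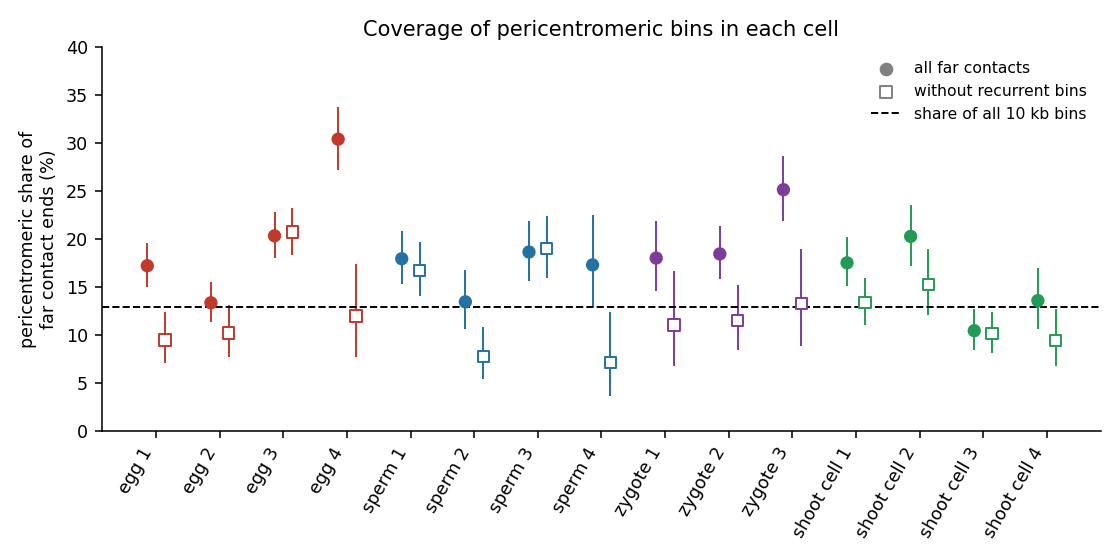
Pericentromeric share of far contact ends (%, vertical axis) in each of the 15 cells, with all far contacts (filled circles) and without contacts that touch a recurrent bin (open squares); lines are exact 95% intervals and the dashed line is the 12.9% that the windows hold of all bins. Circles lie above the line in 14 of 15 cells, and the squares of egg 3 and sperm 3 stay close to their circles.

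Short contacts, those of under 20 kb within a chromosome, gave another reading of how well these regions were sampled. Pericentromeres held 14.4% ± 4.10 of the ends of short contacts in the eggs, 17.5% ± 8.77 in the sperm, 10.4% ± 1.65 in the zygotes and 10.1% ± 1.83 in the shoot cells (SD). In all 3 zygotes and all 4 shoot cells the share was below 12.9%, and the highest value, 30.5%, was that of sperm 3. Read pairs per contact, a measure of amplification, were higher for contacts with a pericentromeric end than for the rest in 6 of 15 cells, with means of 3.89 and 3.90 read pairs per contact over the 15 cells. Among far contacts alone they were higher in 9 of 15 cells, with means of 3.88 for those with a pericentromeric end and 3.35 for the rest.

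The coverage changed with distance from the centromere. In the innermost 0.5 Mb on each side, where the centromeric repeats lie if the positions hold, the share of far ends was below the share of bins in 13 of 15 cells, among them all 11 eggs, sperm and zygotes. The ratio of the 2 shares was 0.655 ± 0.243 in the eggs, 0.401 ± 0.147 in the sperm, 0.453 ± 0.0957 in the zygotes and 1.29 ± 0.845 in the shoot cells (SD). The 4 shoot cells lay on both sides of 1: the ratio was 1.70 in shoot cell 1, 2.26 in shoot cell 2, 0.8287 in shoot cell 3 and 0.383 in shoot cell 4. In shoot cell 2, 33 of the ends came from a single DpnII fragment, at chr5:12094310-12095338, which met 33 partner fragments on 10 chromosomes. Without recurrent bins the innermost class was again below 1 in 13 of 15 cells, and with each fragment counted once and recurrent bins left out it was below 1 in 14 of 15.

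Farther out the profile rose and then dropped. Between 1 and 1.5 Mb the ratio was 2.44 ± 1.902 in the eggs, 2.04 ± 0.985 in the sperm, 2.62 ± 0.157 in the zygotes and 1.47 ± 0.657 in the shoot cells, and without egg 4 the mean of eggs was 1.54. Between 1.5 and 2 Mb it was 2.78 ± 1.06 in the eggs, 1.88 ± 0.398 in the sperm, 2.77 ± 1.42 in the zygotes and 1.25 ± 0.354 in the shoot cells (SD). These classes were above 1 in 13 and 14 of the 15 cells, and without recurrent bins in 7 and 7. Past the edge of the windows, between 2 and 3 Mb, the ratio was above 1 in 6 of 15 cells. The edge falls in an uneven stretch: the last 100 kb inside it held 279 far ends, of which 105 lay outside recurrent bins, and the first 100 kb beyond it held 15.

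**Figure D2:**
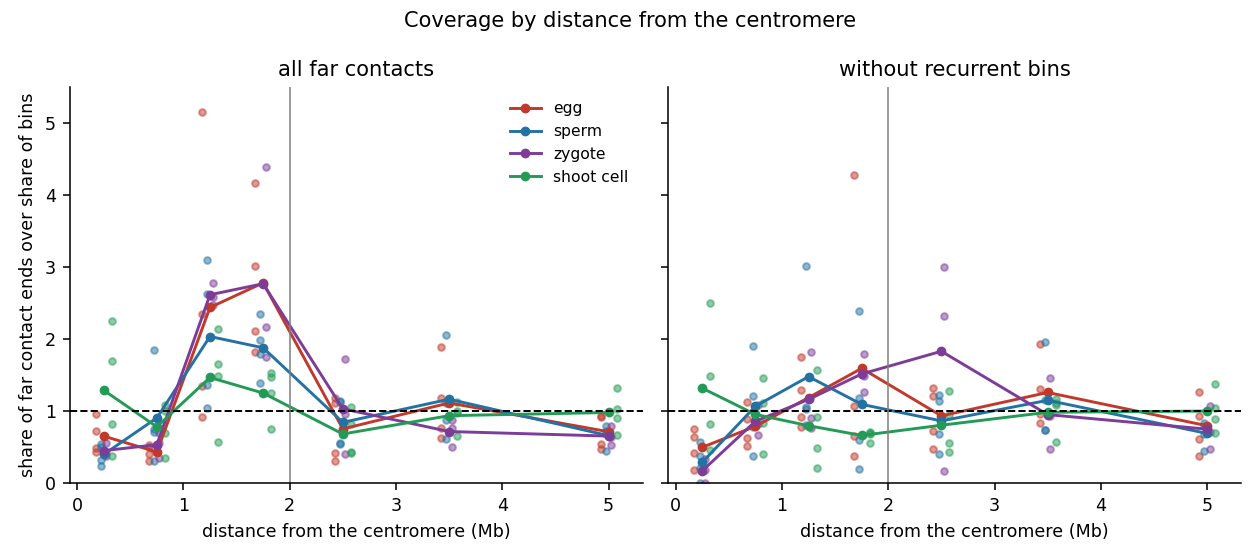
Share of far contact ends over share of bins (vertical axis) by distance from the centromere (Mb, both sides together, each class plotted at its middle), with all far contacts (left) and without recurrent bins (right); small points are cells, lines join group means, the grey line is the edge of the windows and the dashed line is equal share. With all contacts the classes from 1 to 2 Mb stand highest in the means of eggs, sperm and zygotes, and the innermost class is below 1 in all 11 eggs, sperm and zygotes in both panels.

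The chromosomes contributed unequally. The highest mean ratio of share of far ends to share of bins over the 15 cells was that of the chromosome 12 window (5.28 ± 3.87, SD), followed by chromosome 9 (2.45 ± 2.35) and chromosome 6 (1.89 ± 2.31). The lowest ratios were those of chromosome 3 (0.472 ± 0.502), chromosome 7 (0.509 ± 0.547) and chromosome 8 (0.572 ± 0.527). The SDs are about as large as the means, so the order of neighbouring chromosomes is not separated by the spread over cells, but the chromosome 12 and chromosome 9 windows were above 1 in 13 of 15 cells each. Chromosome 12 averaged 6.99 ± 6.09 in the eggs, 4.10 ± 3.73 in the sperm, 7.27 ± 0.497 in the zygotes and 3.25 ± 1.86 in the shoot cells. Without egg 4 the mean of eggs was 3.98, and without sperm 4 that of sperm was 2.49. Its ratio was 0.590 ± 0.912 over the 15 cells once recurrent bins were left out, and that of chromosome 9 was 1.12 ± 1.48.

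In several cells a single chromosome window held much of the pericentromeric signal. Chromosome 12 had 138 of the 244 pericentromeric far ends of egg 4 (56.6%) and 25 of the 45 of sperm 4 (55.6%). Chromosome 6 had 114 of 227 in egg 3 (50.2%), chromosome 9 had 73 of the 167 in zygote 3, chromosome 1 had 57 of the 140 in sperm 1 (40.7%) and chromosome 5 had 45 of the 131 in shoot cell 2 (34.4%). The leading chromosome thus differed between cells of the same kind.

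**Figure D3:**
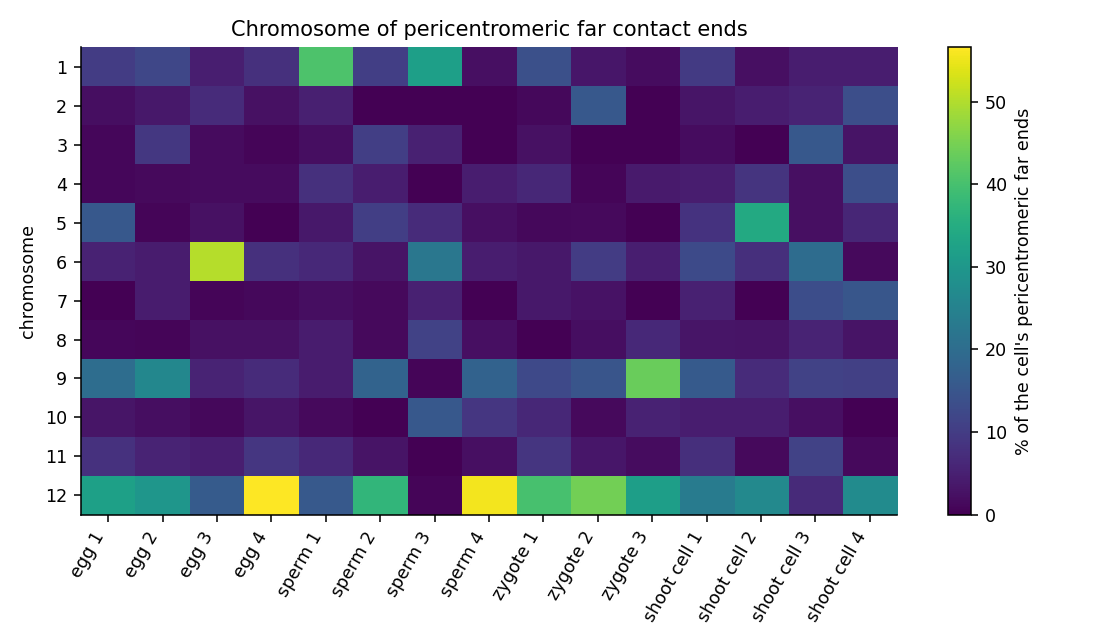
Share of the pericentromeric far contact ends of each cell (colour, %) that lay in the window of each of the 12 chromosomes (rows) in each of the 15 cells (columns). Chromosome 12 is bright in most cells and dark in sperm 3 and shoot cell 3, and bright fields of a single cell stand out for chromosome 6 in egg 3, chromosome 5 in shoot cell 2 and chromosome 9 in zygote 3.

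Most of the far ends in the chromosome 12 window, 513 of 597, lay in 80 kb, chr12:13340001-13420000 on the build of the files, 1.48 Mb from the centromere position. In egg 3 the locus held only 1 of the 37 far ends of that window. Of its 8 bins 7 were recurrent, and it held 513 of the 2006 pericentromeric far ends (25.6%), with at least 1 in each of the 15 cells. It had 56, 41, 1 and 133 far ends in eggs 1 to 4, and 13, 15, 1 and 25 in sperm 1 to 4. It had 30, 63 and 50 in zygotes 1 to 3, and 32, 34, 4 and 15 in shoot cells 1 to 4. As a share of the pericentromeric far ends this was 28.5% ± 22.1 in the eggs, 22.02% ± 24.05 in the sperm, 36.7% ± 6.35 in the zygotes and 18.4% ± 9.57 in the shoot cells (SD). Without sperm 4 the mean of sperm was 10.8%. The zygotes were the most alike, and each other group had a cell with 4 or fewer far ends there.

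That locus was reached mostly from other chromosomes, as were pericentromeric bins in general. Of its far ends 382 (74.5%) were trans, beside 1570 of all 2006 pericentromeric far ends (78.3%), with partners on all 11 other chromosomes, and the median separation of the 131 cis ends was 4.86 Mb. Its partner bin in the most cells was chr1:39110001-39120000, in 10 cells and 31 contacts, followed by chr12:20560001-20570000 in 9 cells. Neither of these lies in a pericentromeric window.

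The 10 pericentromeric bins with far contacts in the most cells were, on chromosome 12, chr12:13370001-13380000 in 14 cells, chr12:13380001-13390000 and chr12:13390001-13400000 in 13 cells each, chr12:13400001-13410000 in 12 and chr12:13410001-13420000 in 11. On the other chromosomes they were chr1:18680001-18690000 in 12 cells, chr9:4720001-4730000 in 11, and chr11:11890001-11900000, chr9:4690001-4700000 and chr10:7960001-7970000 in 10 cells each. All 10 had far contacts in all 3 zygotes, which the choice of bins reached in the most cells makes likely in advance. The bin of chromosome 1 lay 1.99 Mb from the centromere, just inside the edge of the window, whereas those of chromosomes 11 and 10 lay 0.105 Mb and 0.235 Mb from it, on the side of lower coordinates. What these bins contain was not analysed here, because no gene annotation on the build of the files was used.

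The second largest recurrent place was chr9:4670001-4730000, 1.9 Mb from the centromere of chromosome 9, with 199 far ends (9.92% of the pericentromeric total) in 14 cells. It had 32, 31, 2 and 17 far ends in eggs 1 to 4, 2, 10, 0 and 2 in sperm 1 to 4, 10, 21 and 54 in zygotes 1 to 3, and 3, 8, 1 and 6 in shoot cells 1 to 4. In sperm 3 the count of 0 of 116 pericentromeric far ends allows a share of up to 2.59%, taking 3 counts of the total as the limit that a count of 0 allows. Its share of pericentromeric far ends averaged 11.7% ± 9.57 in the eggs, 5.20% ± 6.74 in the sperm, 19.7% ± 10.997 in the zygotes and 4.55% ± 3.73 in the shoot cells (SD), with 1.96% in the sperm without sperm 2, and 12.5% of zygote 1, the lowest zygote, was above all 4 shoot cells. Of the eggs, 2 exceeded that value, as did sperm 2. The interval of zygote 1, 6.16% to 21.8%, overlapped that of shoot cell 4, 3.41% to 18.7%.

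Recurrent pericentromeric bins mostly met other recurrent bins. Of their 711 trans ends, 460 (64.7%) had a partner in another recurrent bin anywhere in the genome, against 137 of the 859 trans ends of other pericentromeric bins (15.9%). The bins were chosen from these same contacts, and a contact that returns in several cells counts at both of its ends. The comparison therefore cannot show a preference of recurrent bins for each other. Jointly, the recurrent bins held 49.2% ± 35.0 of the pericentromeric far ends in the eggs, 33.3% ± 30.6 in the sperm, 63.6% ± 0.1496 in the zygotes and 29.0% ± 15.0 in the shoot cells (SD), with 21.5% in the sperm without sperm 4. The 3 zygotes stood at 63.8%, 63.5% and 63.5%, closer than their intervals of 52.2% to 74.2%, 55.2% to 71.3% and 55.7% to 70.8%. Their small SD therefore does not show that zygotes are alike. Eggs reached from 0.881% to 82.8%.

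Some contacts were the same down to the fragment pair. Among 1551 distinct far fragment pairs with a pericentromeric end, 118 (7.61%) were found in at least 2 cells, against 82 of 3602 other far fragment pairs (2.28%). Of those 118 pairs, 114 had an end in a recurrent bin and 76 had both. The pair found most often joined chr12:13386094-13387360 and chr12:20559791-20560326, which are 7.17 Mb apart, in 9 cells: 2 eggs, 3 zygotes and 4 shoot cells. The next joined chr1:39111609-39112013 and chr12:13419112-13419328, in 7 cells. Shared pairs made up 0.971% of the pericentromeric far contacts in egg 3, 2.22% in sperm 3 and 4.65% in shoot cell 3, against 9.71% to 34.7% in the other 12 cells. Here too the interval of shoot cell 3, 1.28% to 11.5%, overlapped that of sperm 1, 4.75% to 17.1%. Whether shared pairs come from nuclear contacts, from mapping or from material shared between libraries was not tested.

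A few fragments had many partners, some of them inside recurrent bins. Over the 15 cells 1094 pericentromeric fragments had a far contact, counted per cell. Of them 15, with at least 10 far partners each, carried 263 of the 2006 far ends. A fragment can be ligated only at its cut ends, and whether so many partners were separate ligations was not tested. The fragment with the most was chr6:17115581-17117414 in egg 3, with 53 far partners on 12 chromosomes. The surrounding chr6:17100001-17200000 held 113 of the 227 pericentromeric far ends of egg 3 (49.8%), on 9 fragments. Fragments with 3 or more partners of any kind made up 18.1% ± 7.11 of the contacted pericentromeric fragments in the eggs, against 13.8% ± 2.25 elsewhere in the genome. The pericentromeric share was 16.8% ± 10.4 in the sperm, 15.4% ± 9.65 in the zygotes and 13.1% ± 4.68 in the shoot cells, against 12.3% ± 5.01, 13.6% ± 3.20 and 12.7% ± 6.78 elsewhere (SD). It was higher than elsewhere in 9 of 15 cells, and without zygote 3 the mean of zygotes was 9.91%.

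Most far contacts of the pericentromeres led to another chromosome. The trans share of far contacts with a pericentromeric end was 89.2%, 82.8%, 84.5% and 85.1% in eggs 1 to 4, and 58.3%, 84.4%, 54.4% and 85.4% in sperm 1 to 4. It was 87.5%, 82.9% and 85.03% in zygotes 1 to 3, and 89.7%, 82.2%, 74.4% and 76.7% in shoot cells 1 to 4. Sperm 1 and sperm 3 lay below every other cell. The means were 85.4% ± 2.72 in the eggs, 70.6% ± 16.5 in the sperm, 85.1% ± 2.32 in the zygotes and 80.7% ± 6.81 in the shoot cells, against 79.9% ± 5.14, 77.9% ± 11.1, 82.4% ± 4.30 and 79.7% ± 6.55 for far contacts without a pericentromeric end (SD). The pericentromeric value was the higher in 10 of 15 cells, and it was the lower in egg 2, sperm 1, sperm 3, zygote 2 and shoot cell 3. A contact is pericentromeric here when either end lies in a window. The ends of a trans contact fall there separately, while those of a short cis contact mostly fall there together. Counting alone therefore favours a higher trans share for pericentromeres, by an amount that was not computed.

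Within the chromosome, far contacts of eggs and zygotes spanned megabases. The share of far cis contacts with a pericentromeric end that spanned 2 Mb or more was 100%, 68.2%, 81.3% and 77.4% in eggs 1 to 4, of 19 to 32 contacts each. In sperm it was 20.9% of 43 contacts in sperm 1 and 19.5% of 41 in sperm 3, with 9 of 10 contacts in sperm 2 and 5 of 6 in sperm 4. It was 66.7%, 87.5% and 68.2% in zygotes 1 to 3, of 9, 24 and 22 contacts, and in shoot cells 1 to 4 such contacts were 5 of 14, 9 of 18, 22 of 22 and 11 of 14. Eggs and zygotes kept within 66.7% to 100%, while sperm 1 and sperm 3 were low and sperm 2 and sperm 4 high. The means were 81.7% ± 13.4 in the eggs, 53.4% ± 38.5 in the sperm, 74.1% ± 11.6 in the zygotes and 66.1% ± 28.8 in the shoot cells, against 51.7% ± 10.9, 42.9% ± 19.9, 56.1% ± 16.3 and 49.0% ± 12.6 for far cis contacts elsewhere (SD). The pericentromeric share was the higher in 12 of 15 cells, including all 4 eggs, and the exceptions were sperm 3, zygote 3 and shoot cell 1. A contact enters the pericentromeric set when either end lies in a window. The 2 ends of a long contact fall there separately, while those of a short contact mostly fall there together. Counting alone therefore favours a higher share of long contacts in this set, by an amount that was not computed.

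In the means of eggs, sperm and zygotes the excess over the rest lay in the class from 2 to 10 Mb, and in shoot cells more of it lay in separations over 10 Mb. The class from 2 to 10 Mb held 66.01% ± 23.3 of the far cis contacts of pericentromeres in the eggs, 43.8% ± 43.7 in the sperm, 63.8% ± 19.4 in the zygotes and 29.6% ± 20.5 in the shoot cells, against 18.8% ± 6.94, 24.5% ± 11.5, 22.7% ± 10.1 and 24.5% ± 4.47 elsewhere (SD). The sperm ran from 4.65% in sperm 1 to 83.3% in sperm 4. Pooled over the sperm, where sperm 1 and sperm 3 supplied most contacts, this class held 18 of 100, against 33 of 187 elsewhere. The excess of sperm was thus in the mean over cells only. Separations over 10 Mb held 15.7% ± 14.7 in the eggs, 9.62% ± 6.92 in the sperm, 10.3% ± 10.3 in the zygotes and 36.5% ± 33.3 in the shoot cells, against 32.9% ± 5.51, 18.4% ± 14.0, 33.4% ± 19.8 and 24.5% ± 8.85 elsewhere. Single cells set these means over 10 Mb: without shoot cell 3 that of shoot cells was 19.8%, below the 24.5% elsewhere, without egg 3 that of eggs was 9.48%, and without zygote 1 that of zygotes was 4.36%. Chromosome 12 supplied the largest number of these cis contacts in 10 of the 15 cells, among them 15 of 19 in egg 1 and 21 of 31 in egg 4. Without recurrent bins the 2 to 10 Mb class still held 63.8% ± 24.6 in the eggs, but 38.4% ± 41.1 in the zygotes and 19.0% ± 24.8 in the shoot cells, and sperm 4 had no far cis contact left, so that the other 3 sperm gave 27.1% ± 38.5. These means too rest on single cells, with 4.94% in the sperm without sperm 2, 16.7% in the zygotes without zygote 2 and 6.88% in the shoot cells without shoot cell 4. That of eggs rests on 4, 12, 32 and 2 contacts in eggs 1 to 4, and 20 of the 32 in egg 3 lay on chromosome 6.

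**Figure D4:**
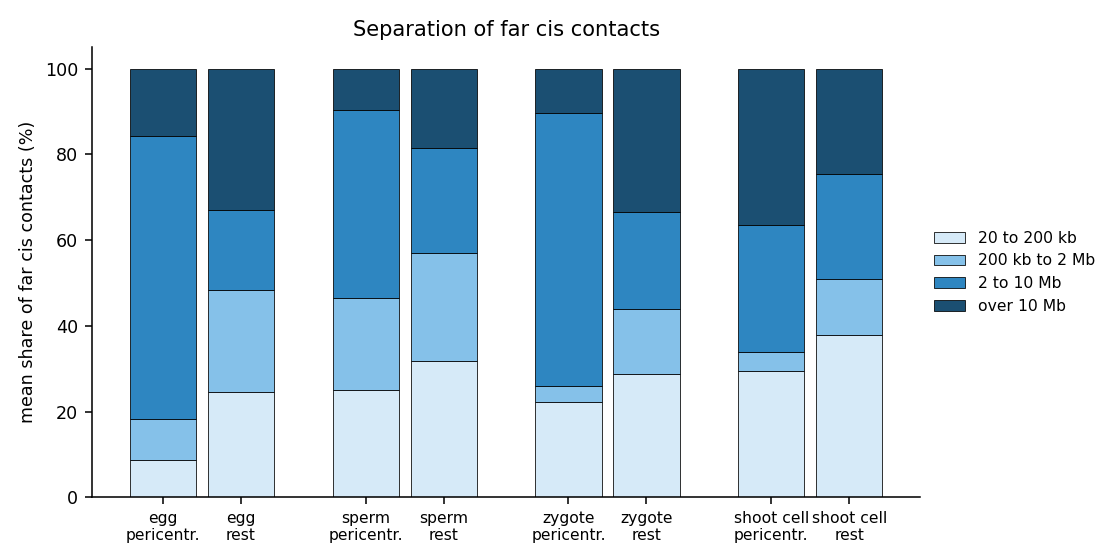
Mean share of far cis contacts (%, vertical axis) by separation class (shades) for contacts with a pericentromeric end and for the rest, in each group; bars are means over the cells of a group, whose SDs are given in the text. In eggs and zygotes the class from 2 to 10 Mb takes over 60% of the pericentromeric bar, against 18.8% and 22.7% of the bar for the rest.

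Few far cis contacts joined the windows on opposite sides of a centromere, with no allowance made for the separation of the windows. Of all 327 far cis contacts with a pericentromeric end, 8 (2.45%, interval 1.06% to 4.76%) had both ends within 2 Mb of the centromere on opposite sides, whereas 101 (30.9%) had both ends in the window on the same side. Another 141 (43.1%) led from the window to the rest of the same arm and 77 (23.5%) to the rest of the other arm. Sperm differed from the other groups in this: 58 of their 100 contacts had both ends in the window on the same side, against 12 of 104 in the eggs, 13 of 55 in the zygotes and 18 of 68 in the shoot cells. The 100 were mostly the 43 of sperm 1 and the 41 of sperm 3, so these 2 cells set the pooled value. Without recurrent bins, 4 contacts of eggs joined opposite sides and 2 the same side. The numbers were 1 and 55 in the sperm, 1 and 5 in the zygotes and 1 and 9 in the shoot cells.

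Counted over all partners, a centromere lay between the ends of 42.3% ± 19.0 of these contacts in the eggs, 17.5% ± 11.9 in the sperm, 21.2% ± 10.6 in the zygotes and 27.9% ± 21.0 in the shoot cells (SD). The values of single cells were 52.6%, 40.9%, 59.4% and 16.1% in the eggs, and in sperm 6.98% in sperm 1 and 9.76% in sperm 3, with 2 of 10 contacts in sperm 2 and 2 of 6 in sperm 4. They were 33.3%, 16.7% and 13.6% in the zygotes, and 21.4%, 16.7%, 59.1% and 14.3% in the shoot cells. Egg 4 lay in the range of zygotes, and the other 3 eggs lay above all zygotes. Without shoot cell 3 the mean of shoot cells was 17.5%. Without recurrent bins few contacts were left in several cells, and none in sperm 4. Of those left, 4 of 4, 7 of 12, 19 of 32 and 1 of 2 had a centromere between their ends in eggs 1 to 4, and 2 of 39, 1 of 7 and 4 of 41 in sperm 1 to 3. The numbers were 2 of 3, 3 of 11 and 1 of 4 in zygotes 1 to 3, and 3 of 8, 2 of 9, 13 of 21 and 2 of 9 in shoot cells 1 to 4.

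Pericentromeres of different chromosomes met each other 1.02 times as often as their coverage predicted in the mean of eggs with windows of 2 Mb, but 2.84 times as often with windows of 1 Mb. The expected number of trans contacts between 2 pericentromeres was computed in each cell from the trans ends of every chromosome and region. Observed over expected was 0.695, 1.09, 1.18 and 1.12 in eggs 1 to 4, and 1.37, 0.616, 0 and 1.11 in sperm 1 to 4. It was 0.703, 0.552 and 0.908 in zygotes 1 to 3, and 1.04, 2.35, 1.31 and 1.17 in shoot cells 1 to 4. The 4 shoot cells were all above 1 and the 3 zygotes all below, but only in shoot cell 2 did the Poisson interval (1.48 to 3.56) leave out 1. That interval takes contacts as independent. Of the 22 contacts of shoot cell 2, the chromosome 5 window, with its fragment of 33 partners, had 4, 1, 2, 2 and 3 with chromosomes 4, 8, 9, 10 and 12. In sperm 3, 0 of 49 trans contacts joined 2 pericentromeres, which by the same limit of 3 counts allows a share of up to 6.12%.

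The contact numbers behind these ratios were small. Pooled over cells, 65 contacts between pericentromeres stood against 62.8 expected in the eggs, 11 against 12.2 in the sperm, 21 against 28.0 in the zygotes and 42 against 27.4 in the shoot cells. The mean ratio over cells was 1.02 ± 0.220 in the eggs, 0.774 ± 0.603 in the sperm, 0.721 ± 0.179 in the zygotes and 1.47 ± 0.601 in the shoot cells (SD). Without shoot cell 2, the cell with the fragment of 33 partners, shoot cells averaged 1.17. Within 1 Mb of the centromeres the ratio was 2.84 in the eggs, 0 in the sperm, 1.16 in the zygotes and 1.60 in the shoot cells. No interval was computed for these values, and few far ends lay that near the centromeres. Without recurrent bins the means were 1.19 ± 0.943 in the eggs, 0.253 ± 0.506 in the sperm, 1.23 ± 0.289 in the zygotes and 1.41 ± 1.30 in the shoot cells, so that zygotes then stood above 1, on 3 contacts against 2.55 expected. Of these means, that of shoot cells was 0.773 without shoot cell 2, and that of sperm came from sperm 1 alone.

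Of the 5 pairs of pericentromeres with the most contacts, 4 included chromosome 12. Over the 15 cells 139 contacts joined 2 pericentromeres, and 27 of the 66 possible pairs of chromosomes had none. Chromosomes 9 and 12 had 24 contacts in 9 cells, against 18.4 expected. Chromosomes 6 and 12 had 14 against 11.8, chromosomes 11 and 12 had 12 against 7.25, and chromosomes 1 and 12 had 9 against 7.76. The windows of chromosomes 6 and 11 met 7 times in 6 cells, against 2.73 expected, as many times as those of chromosomes 10 and 12. Without recurrent bins 46 contacts were left, and 38 of the 66 pairs had none.

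Contacts from pericentromeres to chromosome ends, the outer 2 Mb of chromosomes, were at or below their expected number in most cells. Observed over expected was 1.07, 0.194, 1.21 and 0.992 in eggs 1 to 4, and 0.646, 0.0946, 2.93 and 0.264 in sperm 1 to 4. It was 0.897, 0.665 and 0.204 in zygotes 1 to 3, and 1.12, 0.522, 1.22 and 0.501 in shoot cells 1 to 4. The ratio was below 1 in 10 of 15 cells, including all 3 zygotes, and the means were 0.866 ± 0.457 in the eggs, 0.984 ± 1.32 in the sperm, 0.589 ± 0.353 in the zygotes and 0.842 ± 0.383 in the shoot cells (SD). Poisson intervals leave out 1 on the low side in egg 2 (2 contacts against 10.3 expected) and sperm 2 (1 against 10.6). Without recurrent bins the intervals of both cells included 1. Egg 2 then had 1 contact against 5.07 expected (0.0050 to 1.10) and sperm 2 had 1 against 5.40 (0.0047 to 1.03).

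Sperm 3 was the exception. It had 26 such contacts against 8.86 expected, and 22 of its 49 pericentromeric trans contacts joined 7 fragments within chr5:1235970-1243247 to 10 fragments within chr6:16137182-16139450. Without sperm 3 the mean of sperm was 0.335. In the other 14 cells the largest such cluster, of contacts with both ends within 100 kb, held 3.39% to 15.6% of the pericentromeric trans contacts, against 44.9% in sperm 3.

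The interior of other chromosomes took most of the trans contacts of pericentromeres. Its share lay between 78.0% and 91.5% in the eggs, between 46.9% (sperm 3) and 94.4% in the sperm, between 85.7% and 89.6% in the zygotes, and between 66.3% and 84.8% in the shoot cells. Observed over expected was 1.05 ± 0.0454 in the eggs, 1.01 ± 0.284 in the sperm, 1.12 ± 0.0546 in the zygotes and 0.905 ± 0.106 in the shoot cells (SD). All 3 zygotes were above 1 and all 4 shoot cells below, at 1.10, 1.18 and 1.07 in the zygotes and 0.974, 0.757, 0.899 and 0.991 in the shoot cells. This mirrors the contacts between pericentromeres, since the shares of all partner regions add up to the whole, and without recurrent bins both groups had cells on either side of 1.

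**Figure D5:**
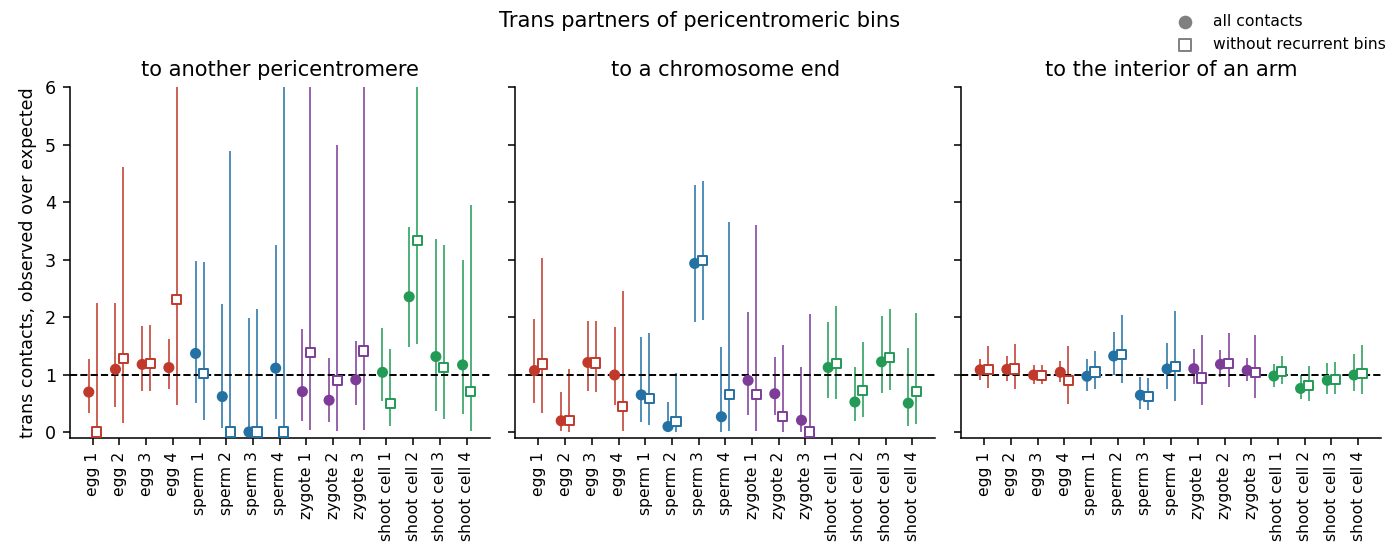
Trans contacts of pericentromeric bins, observed over expected (vertical axis), to another pericentromere, to a chromosome end and to the interior of an arm, in each of the 15 cells, with all contacts (filled circles) and without recurrent bins (open squares); lines are exact Poisson 95% intervals, drawn up to 6, and the dashed line is 1. Shoot cell 2 stands out at 2.35 in the left panel and sperm 3 at 2.93 in the middle panel, and most other intervals span 1.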

How the data were processed

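Each deposited file holds the read pairs of 1 cell as a list in NCC format, and the authors' values are positions, restriction fragments and identifiers (unit other), with no normalised signal. No source used here names the aligner, the software that called contacts or the build. A separate list of chain letters for chromosomes was left aside.

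Fragment midpoints placed contacts in 10 kb bins. A bin was pericentromeric within 2 Mb of a centromere, an end bin in the outer 2 Mb, and interior otherwise. Expected trans counts are products of the trans ends of each chromosome and region in the cell, with pairs on 1 chromosome barred. On simulated pairs with random partners the ratio was tested to lie near 1. With 1 sample a group no test was made, and intervals are exact at 95%.

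Named in the text are the 10 member bins reached in most cells (ties by far contacts, then position), the 5 pairs of windows with most contacts, and the 3 chromosomes with highest and lowest mean ratio. Other named places (hub fragments, clusters, shared pairs, loci of merged recurrent bins) were chosen after their values were seen. Members and lists were chosen with earlier results of these data known. Alternatives covered the contact unit, isolated contacts, many-partner fragments, recurrent bins, the window and the expectation. Leaving out shared pairs or chromosomes 9 or 12, counting fragments once and an expectation that keeps all margins were added after seeing the data. Python 3.11.15, numpy 2.4.6, pandas 2.3.3, scipy 1.17.1 and matplotlib 3.10.9 were used.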

Additional observations from a re-analysis of the deposited data

Results flagged for a closer look

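Shoot cell 3 lay far from the other 3 shoot cells in the share of its far cis contacts with a pericentromeric end that crossed the centromere, 59.1%, with shoot cell 1 next at 21.4%. The same cell lay far from them in the share of its pericentromeric far ends in recurrent bins, 6.67%, with shoot cell 1 next at 33.1%. Chance alone marks about 1 in 20 groups of this size, and 27 groups of 4 cells were examined.

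Contacts between pericentromeres of different chromosomes, observed over expected, averaged 1.47 in shoot cells and 0.721 in zygotes, with every shoot cell above 1 and every zygote below. The difference was not tested, and without recurrent bins 2 of 3 zygotes were above 1 and 2 of 4 shoot cells below.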

How the results depend on the processing

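No paired analysis was possible because replicate numbers only name cells, no label ties an egg, sperm, zygote or shoot cell of the same number to each other, and no test was made. Of the values of the 4 main measures recomputed under other settings, not counting those that left out a single cell, 140 moved by less than the SD over cells and 28 by more. The window had the largest influence. Within 1 Mb of the centromeres the share of far ends was 3.51% in the eggs and 4.22% in the sperm. In the zygotes it was 3.19%, and in the shoot cells 6.69%. The trans share of eggs was 91.2% there, and their cis share of 2 Mb or more was 64.6%. Pericentromere to pericentromere contacts over expected were 2.84 for eggs, 0 for sperm and 1.16 for zygotes, on few far ends. Without recurrent bins the share of far ends was 12.7% for sperm and 11.9% for zygotes, and zygotes had a trans share of 78.2%, a cis share of 60.9% and a ratio of 1.23, on the other side of 1 from the 0.721 of all contacts. With isolated contacts left out, the share of far ends of sperm was 21.7%, the trans shares were 80.9% for eggs, 81.1% for zygotes and 67.9% for shoot cells, and the ratio of zygotes was 0.387. Without fragments of more than 4 partners the trans share of zygotes was 82.1% and the ratio of eggs 1.39. With trans contacts alone the share of far ends of sperm was 13.9%, and without chromosome 12 it was 14.1%. Without chromosome 9 the trans share was 82.1% for eggs and 80.8% for zygotes. An expectation that ignores coverage gave ratios of 2.56 for eggs, 1.60 for zygotes and 2.31 for shoot cells. Beyond the construction of these settings, the cause was not tested. Leaving out each cell in turn gave shares of far ends of 17.0% to 22.7% for eggs, 16.2% to 18.0% for sperm, 18.2% to 21.8% for zygotes and 13.8% to 17.1% for shoot cells. Without shoot cells 3 and 4 that of shoot cells was 18.9%. Depth limits shares of far cis contacts most, with 6 to 43 such contacts in a cell.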
